A study of Mus musculus with 8 samples.

Results

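The genes described here are 10 mouse genes of the Nrf2 response to oxidative stress: Nfe2l2, Keap1, Gclc, Gclm, Slc7a11, Srxn1, Txnrd1, Nqo1, Hmox1 and G6pdx. They were chosen by name from a table of 27110 genes, and all 10 were found in it and had enough reads to be tested. The tested livers, called LKO, carry a liver-restricted deletion of Pkd1l1, a polycystin-family gene studied as a candidate for biliary atresia. There are 4 of them, LKO 3, 4, 12 and 13, from female mice. Their Fl/Fl controls have the floxed allele. Fl/Fl 5, 7 and 9 are female and Fl/Fl 10 is male. Every liver was taken at week 7 and is labelled NT for treatment. The labels give hepatocytes and cholangiocytes as the cell types, and the sources used here do not name the Cre driver. Total RNA of each liver was sequenced as 1 library.

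Nrf2, the protein of Nfe2l2, is a transcription factor that is made and destroyed continuously. Keap1 holds it and hands it to a ubiquitin ligase, and oxidants or electrophiles that modify Keap1 let Nrf2 build up and pair with small Maf proteins at antioxidant response elements. Its targets make glutathione, keep thioredoxin reduced, supply NADPH and detoxify quinones and heme. Because the control acts on the protein, Nfe2l2 RNA need not follow Nrf2 activity, and the RNA of the targets is the usual readout in liver.

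The question of this comparison is whether RNA of these genes differed between LKO and Fl/Fl livers. None of the 10 passed an adjusted p of 0.05 in edgeR's quasi-likelihood test, where 1.41% of the 16420 tested genes did (232 genes, 1.02% higher and 0.396% lower). Only Keap1 had an unadjusted p under 0.05, against 16.1% of tested genes. DESeq2 and limma voom called 0 of the 10 as well (5.39% and 1.3% of tested genes called). DESeq2 gave no adjusted p for Slc7a11, so it could not call that gene. Without a sex term edgeR also called 0 of the 10, and 0.00609% of all tested genes. The fold of LKO over female Fl/Fl ran from 0.870 for Nfe2l2 to 1.22 for Keap1, with 7 members above 1 and 3 below. For all members except Slc7a11, the 95% intervals of the fold lay between 0.725 and 1.53. The members' median log2 fold change was 0.11, beside -0.0032 over all tested genes. Log2 fold changes set LKO against the female controls, since a sex term sets the male library aside. Levels are CPM, reads scaled to a common library size with TMM factors, with mean ± SD over 4 LKO and 3 female Fl/Fl livers.

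**Figure D1:**
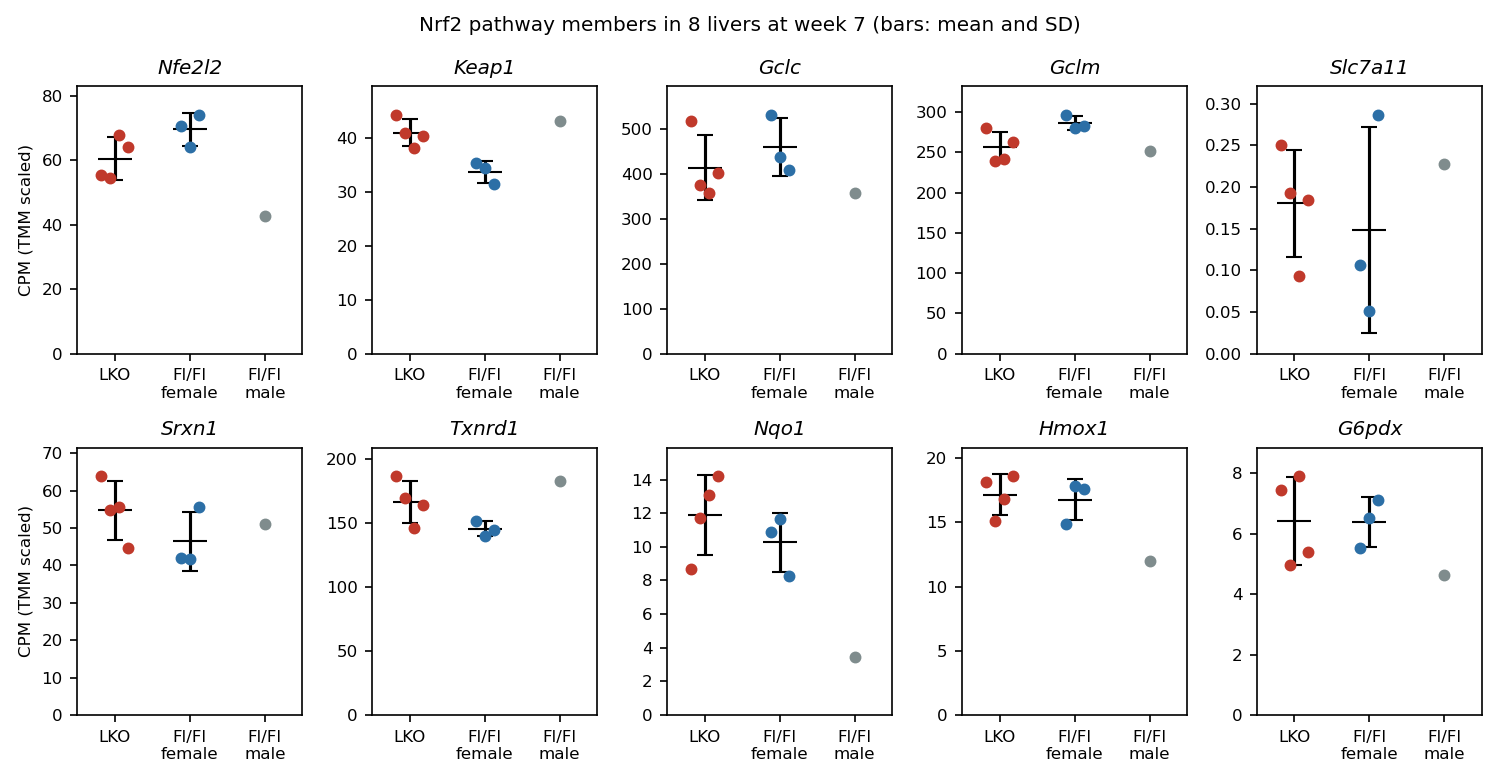
Level of each member in CPM (y axis, from 0) in LKO, female Fl/Fl and male Fl/Fl livers. Each point is 1 library, and bars give mean and SD. Keap1 is the 1 panel in which no LKO point overlaps the female Fl/Fl points (38.2 to 44.3 against 31.4 to 35.3 CPM).

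The libraries held 71491723 to 76622375 counted reads. Pkd1l1 had 2 reads over the 4 LKO livers, 2 over the 3 female Fl/Fl livers and 0 in the male one, so it could not check the genotype. Reads of 4 Y-linked genes matched the sex labels. The number of genes called, 232 in the main fit, rests on some single libraries. It was 47 without LKO 4, 141 without LKO 12 and 58 without LKO 13. It was 4 without Fl/Fl 5, 37 without Fl/Fl 7 and 727 without Fl/Fl 9. The count moved less without LKO 3 (185) and without the male Fl/Fl 10 (209). Nothing in the labels says that the livers are of separate litters or preparations. The p-values measure only how these livers spread, which mixes differences between mice with technical ones and may not hold for other litters. In bulk RNA, fewer cells of a type and less RNA per cell cannot be told apart.

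Keap1 (ENSMUSG00000003308, chromosome 9, 21229730 to 21239361, mm10, minus strand), the adaptor that marks Nrf2 for destruction, had the smallest p of the members. It stood at 44.3, 41.0, 38.2 and 40.4 CPM in LKO 3, 4, 12 and 13, against 35.3, 34.3 and 31.4 CPM in Fl/Fl 5, 7 and 9. Every LKO value was above every female Fl/Fl value, which was also true, in either direction, of 15.1% of tested genes. The means were 41.0 ± 2.53 CPM in LKO (n = 4) and 33.7 ± 2.04 CPM in female Fl/Fl (n = 3), a log2 fold change of 0.28 ± 0.09 (SE, 95% interval 0.09 to 0.48). The edgeR adjusted p was 0.151. DESeq2 gave an adjusted p of 0.0926 for Keap1. The male Fl/Fl library held 43.2 CPM, inside the LKO range. An antisense gene, Gm16754, lies over Keap1 with 477 reads in all, beside 23020 reads of Keap1; the sources used here do not say whether reads were counted by strand.

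Nfe2l2 (ENSMUSG00000015839, chromosome 2, 75675513 to 75704641, minus strand), which encodes Nrf2, had 55.4, 54.5, 67.9 and 64.2 CPM in LKO 3, 4, 12 and 13. The female Fl/Fl livers 5, 7 and 9 had 70.6, 64.0 and 74.1 CPM. The lowest values were those of LKO 3 and 4, and LKO 12 and 13 overlapped the female Fl/Fl range. The log2 fold change was -0.20 ± 0.10 (95% interval -0.43 to 0.03, edgeR adjusted p = 0.370). The clock activator Arntl varied across the same livers: it stood at 30.3 and 26.6 CPM in LKO 3 and 4 and at 5.32 and 8.31 CPM in LKO 12 and 13, against 39.7 and 29.5 CPM in Fl/Fl 5 and 7 and 8.52 CPM in Fl/Fl 9. With log2 CPM of Arntl as a further term, chosen after seeing the data, Nfe2l2 stood at log2 -0.27 ± 0.09 (edgeR adjusted p = 0.152) and Keap1 at 0.33 ± 0.08 (adjusted p = 0.0797). That fit called 0 of the 10 members and 1.89% of tested genes.

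Promoter sequences of the regulator pair and of the targets with a match are shown because Nrf2 acts through the antioxidant response element. RefSeq windows on build GRCm38.p6, from 250 bases before to 50 after a gene's start, were matched by symbol for 8 of the 10 members (10 windows, 3 of them for Txnrd1); Hmox1 and Gclc were not matched. The letters searched on both strands were TGACNNNGC for the element's core, TGANTCA for AP-1 and CACGTG for the E-box that clock factors bind. Capitals mark matches to TGACNNNGC or its reverse complement.
Nfe2l2, chr2:75704614-75704913, minus strand: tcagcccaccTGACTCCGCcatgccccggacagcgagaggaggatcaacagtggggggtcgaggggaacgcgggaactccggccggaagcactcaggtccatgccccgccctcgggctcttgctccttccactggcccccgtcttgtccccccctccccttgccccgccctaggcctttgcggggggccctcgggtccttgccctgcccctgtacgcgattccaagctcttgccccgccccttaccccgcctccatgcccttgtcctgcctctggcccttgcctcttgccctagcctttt
Keap1, chr9:21239283-21239582, minus strand: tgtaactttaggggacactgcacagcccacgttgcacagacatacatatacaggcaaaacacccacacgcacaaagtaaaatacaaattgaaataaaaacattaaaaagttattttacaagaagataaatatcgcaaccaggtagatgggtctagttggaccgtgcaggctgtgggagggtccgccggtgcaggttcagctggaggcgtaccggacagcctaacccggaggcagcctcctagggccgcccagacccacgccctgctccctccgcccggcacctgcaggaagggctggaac
Gclm, chr3:122245307-122245606, plus strand: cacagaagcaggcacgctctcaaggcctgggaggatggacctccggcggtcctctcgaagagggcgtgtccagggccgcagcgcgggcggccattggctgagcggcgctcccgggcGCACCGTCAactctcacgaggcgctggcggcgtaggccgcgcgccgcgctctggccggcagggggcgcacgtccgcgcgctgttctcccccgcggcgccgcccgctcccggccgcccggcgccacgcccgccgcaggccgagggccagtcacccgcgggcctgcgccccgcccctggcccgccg
Srxn1, chr2:152105274-152105573, plus strand: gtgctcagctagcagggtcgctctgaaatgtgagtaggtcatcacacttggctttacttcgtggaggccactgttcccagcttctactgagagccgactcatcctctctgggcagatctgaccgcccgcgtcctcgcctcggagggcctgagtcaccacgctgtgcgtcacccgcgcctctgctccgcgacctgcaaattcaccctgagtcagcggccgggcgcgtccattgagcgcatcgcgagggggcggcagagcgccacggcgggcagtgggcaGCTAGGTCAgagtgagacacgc
Txnrd1, chr10:82858956-82859255, plus strand: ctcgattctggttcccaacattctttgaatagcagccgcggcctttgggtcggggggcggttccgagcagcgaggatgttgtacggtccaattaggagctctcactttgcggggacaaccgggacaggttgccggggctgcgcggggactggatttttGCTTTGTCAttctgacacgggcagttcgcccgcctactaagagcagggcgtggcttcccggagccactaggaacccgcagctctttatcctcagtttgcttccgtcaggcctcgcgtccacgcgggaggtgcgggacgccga
G6pdx, chrX:74428831-74429130, minus strand: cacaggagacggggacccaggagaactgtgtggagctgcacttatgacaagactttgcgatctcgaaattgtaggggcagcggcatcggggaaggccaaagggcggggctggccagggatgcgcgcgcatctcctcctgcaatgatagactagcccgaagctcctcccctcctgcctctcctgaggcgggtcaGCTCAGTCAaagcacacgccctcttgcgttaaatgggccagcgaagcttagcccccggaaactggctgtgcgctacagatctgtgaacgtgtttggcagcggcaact

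The element's core letters were found in 5 of the 10 windows, 1 each for 5 of the 8 matched members, beside 12.4% of all 32851 windows in the table. Counted from the start (-1 is the base before it, 1 the first base after), the match lay at -240 to -232 in Nfe2l2, -134 to -126 in Gclm, -92 to -84 at 1 of the 3 starts of Txnrd1, -57 to -49 in G6pdx and 29 to 37 in Srxn1. The windows of Keap1, Nqo1 and Slc7a11 held none. Sequence outside the windows and looser spellings of the element were not searched, so a window without a match does not mean that the gene lacks the element. Srxn1 alone held the AP-1 letters, at -102 to -96 and -45 to -39 (7.81% of all windows hold them). The match at -45 to -39 is followed by GC and reads TGAGTCAGC with it, which differs from TGACNNNGC by 1 letter. No member's window held the E-box letters, which 7.15% of all windows do. No 2 matches to different motifs overlapped. These are matches of letters, and no binding was measured.

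The 2 subunits of the enzyme that starts glutathione synthesis had negative log2 fold changes in LKO livers, and neither passed the test. Gclc (ENSMUSG00000032350, chromosome 9, 77754535 to 77794485), the catalytic subunit of the rate-limiting glutamate-cysteine ligase, had 518, 375, 358 and 402 CPM in LKO 3, 4, 12 and 13, against 531, 436 and 409 CPM in Fl/Fl 5, 7 and 9. The groups overlapped, with 1 high library in each, LKO 3 and Fl/Fl 5. The log2 fold change was -0.15 ± 0.14 (adjusted p = 0.651), and it was -0.28 without LKO 3 (adjusted p = 0.287) and -0.03 without Fl/Fl 5 (adjusted p = 0.970). Gclm (ENSMUSG00000028124, chromosome 3, 122245557 to 122270732), the modifier subunit that raises the affinity of Gclc for glutamate, had 280, 240, 242 and 263 CPM in the same order of LKO livers and 297, 279.8 and 283 CPM in Fl/Fl 5, 7 and 9. Only LKO 3 reached the female Fl/Fl range. Gclm averaged 256 ± 19.2 CPM in LKO and 287 ± 9.06 CPM in female Fl/Fl (log2 -0.16 ± 0.09, 95% interval -0.36 to 0.03, edgeR adjusted p = 0.399).

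Slc7a11, the cystine importer xCT that feeds glutathione synthesis in many cultured cells (ENSMUSG00000027737, chromosome 3, 49892526 to 50443614), was near the limit of detection. It had 19, 14, 7 and 14 reads in LKO 3, 4, 12 and 13, against 8, 4 and 22 reads in Fl/Fl 5, 7 and 9. The female Fl/Fl livers spanned the whole LKO range. At 3 reads per library the counting floor was 0.0385 to 0.0428 CPM. The 95% interval of the fold ran from 0.468 to 3.15 (log2 0.28 ± 0.62, adjusted p = 0.879). At this depth neither a fall nor a rise within those limits can be excluded.

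Of the thiol-repair genes, Txnrd1 (ENSMUSG00000020250, chromosome 10, 82833951 to 82897712) encodes the cytosolic thioredoxin reductase. It had 186, 169, 146 and 164 CPM in LKO 3, 4, 12 and 13 and 151, 139.8 and 145 CPM in Fl/Fl 5, 7 and 9. Of the LKO livers, LKO 12 alone lay inside the female Fl/Fl range, and the male Fl/Fl library, at 182 CPM, lay among the LKO values. The log2 fold change was 0.19 ± 0.10 (95% interval -0.02 to 0.41, edgeR adjusted p = 0.356). Srxn1 (ENSMUSG00000032802, chromosome 2, 152105516 to 152111376), the sulfiredoxin that repairs over-oxidised peroxiredoxins, had 63.9, 54.8, 55.7 and 44.7 CPM in LKO and 42.0, 41.7 and 55.6 CPM in female Fl/Fl. Fl/Fl 9 stood near LKO 4 and 12 and apart from Fl/Fl 5 and 7, while LKO 13 was nearer to Fl/Fl 5 and 7. The log2 fold change of Srxn1 was 0.24 ± 0.14 (adjusted p = 0.436). It was 0.38 without Fl/Fl 9 (adjusted p = 0.125), 0.15 without LKO 3, and -0.03 without Fl/Fl 5 and 7, which leaves Fl/Fl 9 as the 1 female control.

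The detoxifying targets overlapped between the groups. Nqo1 (ENSMUSG00000003849, chromosome 8, 107388225 to 107403206), the quinone reductase widely used to report Nrf2 activity, had 8.68, 11.7, 13.1 and 14.2 CPM in LKO 3, 4, 12 and 13, against 10.9, 11.6 and 8.27 CPM in Fl/Fl 5, 7 and 9. LKO 12 and 13 were above each female Fl/Fl liver and LKO 3 was near the lowest of them (log2 0.22 ± 0.18, 95% interval -0.18 to 0.61, adjusted p = 0.606). Hmox1 (ENSMUSG00000005413, chromosome 8, 75093621 to 75100589), the inducible heme oxygenase, ranged over 15.1 to 18.6 CPM in LKO and 14.9 to 17.8 CPM in female Fl/Fl, nearly the same span. Its log2 fold change was 0.03 ± 0.11, with a 95% interval of -0.21 to 0.28 (adjusted p = 0.921). G6pdx (ENSMUSG00000031400, chromosome X, 74409483 to 74429194), the first enzyme of the pentose phosphate pathway and a source of NADPH, ranged over 4.96 to 7.91 CPM in LKO and 5.53 to 7.14 CPM in female Fl/Fl (log2 0.01 ± 0.19, adjusted p = 0.991). G6pdx overlaps Ikbkg on the other strand, which has 43631 reads in all beside 3720 of G6pdx, so the split of reads between these genes is uncertain.

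**Figure D2:**
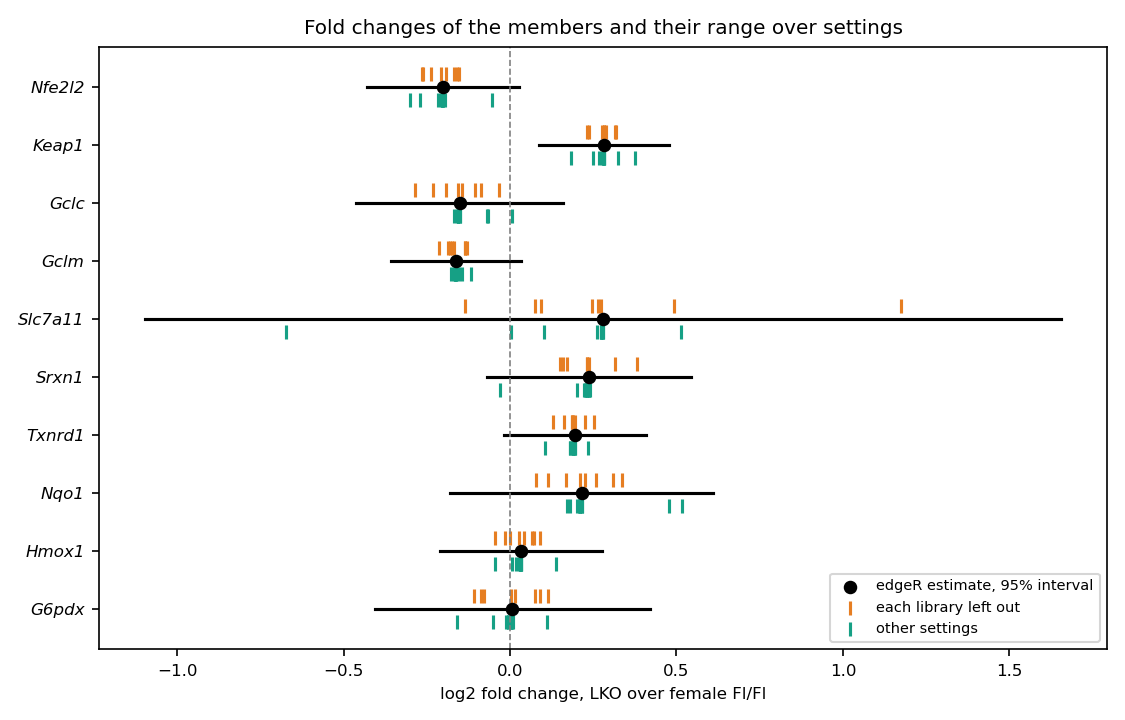
Log2 fold change of each member, LKO over female Fl/Fl (x axis). Black points are edgeR estimates with 95% intervals, orange ticks the estimates with each library left out and green ticks those under the other settings. The interval of Keap1 (0.09 to 0.48) is the only one that does not cross 0, and that of Slc7a11 (-1.10 to 1.66) is the widest.

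Levels can be compared between genes on the deposited FPKM scale, which divides by gene length. Gclc was the most abundant member at 114 ± 20.2 FPKM in LKO and 126 ± 17.5 FPKM in female Fl/Fl. Gclm followed at 42.3 ± 3.28 and 47.3 ± 1.51 FPKM in LKO and female Fl/Fl. Neither range overlapped that of the next gene over the 8 libraries. Txnrd1 (24.3 ± 2.52 FPKM in LKO, 21.3 ± 0.88 in female Fl/Fl), Srxn1 (20.1 ± 2.89 and 17.1 ± 3.01) and Nfe2l2 (16.5 ± 1.77 and 19.04 ± 1.49) came next, with ranges that overlapped from 1 gene to the next. Within libraries, Txnrd1 was above Srxn1 in 8 of 8 and Srxn1 above Nfe2l2 in 5 of 8. Hmox1 (10.2 ± 0.95 FPKM in LKO, 9.95 ± 0.97 in female Fl/Fl), Keap1 (9.06 ± 0.58 and 7.45 ± 0.42) and Nqo1 (7.96 ± 1.59 and 6.86 ± 1.15) formed a further overlapping set, with Hmox1 above Keap1 in 6 of 8 libraries. Keap1 was above Nqo1 in 5 of 8 libraries, so the place of Keap1 in that set is not fixed beyond the spread of the libraries. Hmox1 was above Nqo1 in every library. G6pdx had 2.16 ± 0.49 FPKM in LKO and 2.16 ± 0.28 in female Fl/Fl. Slc7a11 was last, at 0.0134 ± 0.0049 FPKM in LKO and 0.0111 ± 0.0093 in female Fl/Fl.

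**Figure D3:**
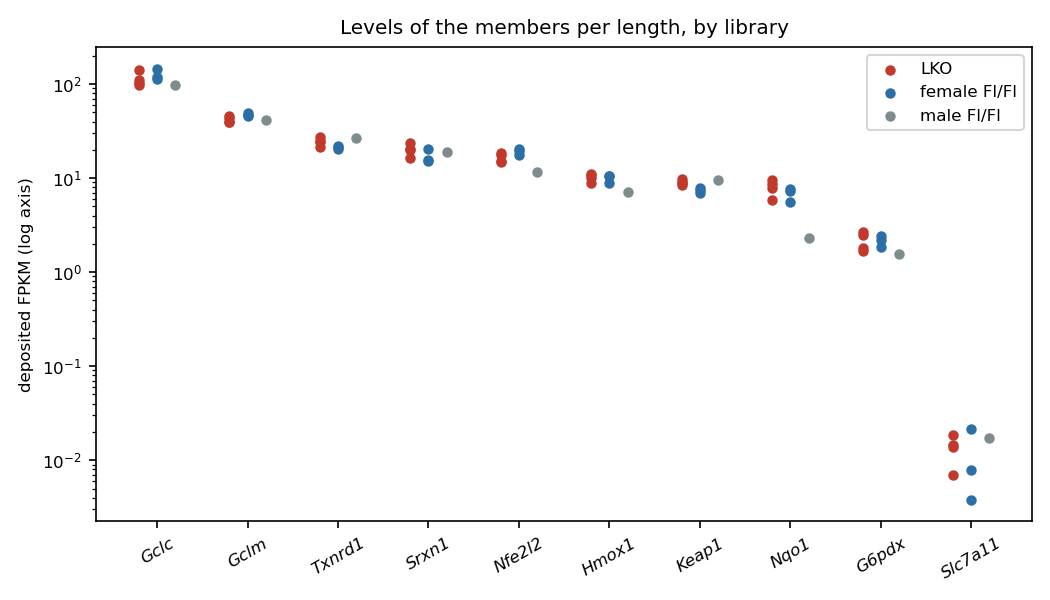
Deposited FPKM of each member in each library (y axis, log scale), with LKO left of female and male Fl/Fl and genes ordered by mean. Gclc lies highest, between 98.0 and 146 FPKM, and Slc7a11 lowest, between 0.0038 and 0.0215 FPKM.

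Ratios within a library do not depend on how libraries are scaled. There were 1.25, 1.33, 1.78 and 1.59 reads of Nfe2l2 per read of Keap1 in LKO 3, 4, 12 and 13, against 1.998, 1.86 and 2.36 in Fl/Fl 5, 7 and 9. Each LKO liver was below each female Fl/Fl liver, and the male Fl/Fl liver, at 0.990, was below all of them. On the log2 scale the ratio averaged 0.56 ± 0.23 in LKO (n = 4) and 1.05 ± 0.18 in female Fl/Fl (n = 3), a difference of -0.49. A two-sided exact permutation test, with 35 ways to split the 7 female livers, gave p = 0.0571, where the smallest p it can give is 0.0286. The reads of Gclc per read of Gclm were 1.85, 1.56, 1.48 and 1.53 in LKO 3, 4, 12 and 13, against 1.79, 1.56 and 1.44 in Fl/Fl 5, 7 and 9. The 2 groups overlapped throughout, and the log2 difference was 0.0069 (exact permutation test, two-sided, p = 0.914). Adjusted over these 2 ratios, the p-values were 0.114 and 0.914.

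**Figure D4:**
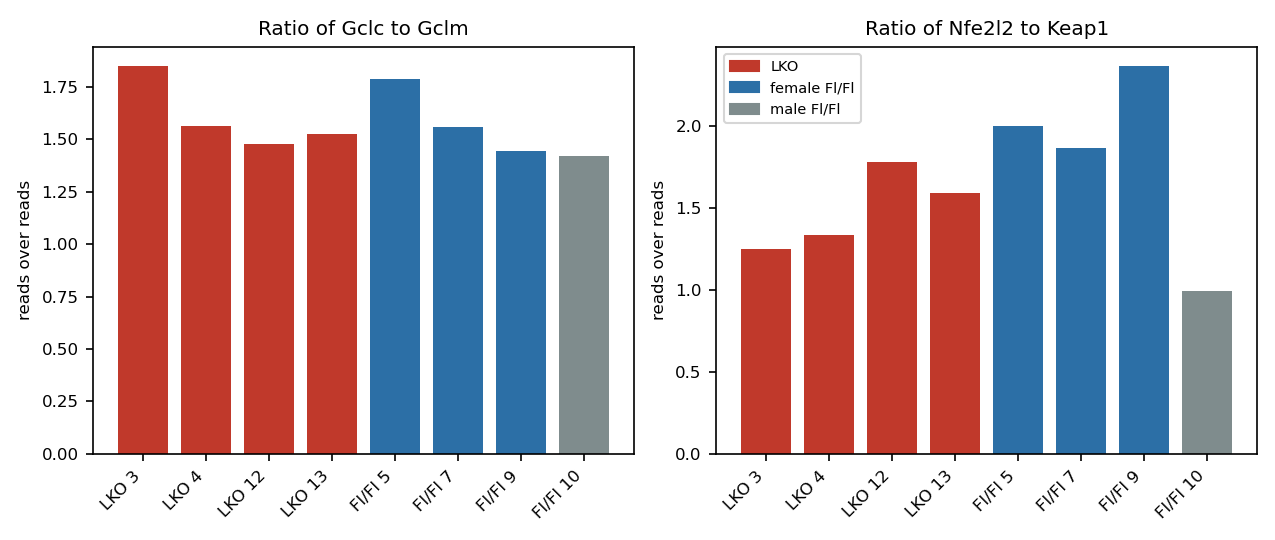
Reads of Gclc per read of Gclm (left) and of Nfe2l2 per read of Keap1 (right) in each library, with bars from 0. The Nfe2l2 to Keap1 ratio lies between 1.25 and 1.78 in LKO and between 1.86 and 2.36 in female Fl/Fl, while the Gclc to Gclm ratios overlap.

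A wider set of 118 genes in 8 lists around the pathway held no call with edgeR. Of 115 tested, 82 log2 fold changes were positive and 33 negative, with a median of 0.10, beside 8122 positive and 8298 negative over all tested genes. At an unadjusted p under 0.05, 18 were higher and 5 lower, which is 20% beside 16.1% of all tested genes. In 17 of the 115 (14.8%) the LKO and female Fl/Fl values did not overlap, beside 15.1% of all tested genes. DESeq2 called 8 of the 115 higher and 3 lower, and limma voom 0. Over all 16420 tested genes DESeq2 called 570 higher and 315 lower (5.39%), beside 232 genes with edgeR. The counts that follow are of edgeR calls, with the number of DESeq2 calls where there were any. Shares at an unadjusted p are to be read against those 16.1%, and DESeq2 calls against those 5.39%.

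None of 18 regulators of Nrf2 and related factors passed. An unadjusted p under 0.05 was reached by 4 (22.2%, beside 16.1% of tested genes), each with a positive log2 fold change. Dpp3, a peptidase that binds Keap1, had 74.4, 66.6, 71.7 and 62.2 CPM in LKO 3, 4, 12 and 13, against 52.4, 53.1 and 60.4 CPM in Fl/Fl 5, 7 and 9. Its groups did not overlap (log2 0.31 ± 0.10, adjusted p = 0.139), as in 3 of these 18 genes (16.7%, beside 15.1% of tested genes). Mafk, a small Maf partner of Nrf2, stood at log2 0.44 ± 0.17 (adjusted p = 0.249), and at 0.69 without Fl/Fl 9 (adjusted p = 0.0147). That setting called 727 of all tested genes, and Mafk passed in no other. None of 17 tested genes of glutathione synthesis and recycling passed, and 1, Chac1, had an unadjusted p under 0.05 (5.88%). Chac1, which breaks glutathione down, averaged 7.99 ± 1.35 CPM in LKO and 13.7 ± 6.52 CPM in female Fl/Fl (adjusted p = 0.264). Oplah, the enzyme that returns 5-oxoproline to glutamate, stood at log2 0.18 ± 0.08 (adjusted p = 0.316).

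None of 15 thioredoxin and peroxiredoxin genes passed with edgeR (3, or 20%, had an unadjusted p under 0.05), and DESeq2 called 1 higher, Prdx5, and 2 lower, Sesn3 and Txnip, the last named after its values were seen. The peroxiredoxin Prdx5 had 141, 149, 144 and 125 CPM in LKO 3, 4, 12 and 13, against 101, 116 and 108 CPM in Fl/Fl 5, 7 and 9 (log2 0.36 ± 0.09, adjusted p = 0.0893). The sestrin Sesn3 averaged 46.3 ± 1.65 CPM in LKO and 57.1 ± 2.87 CPM in female Fl/Fl (log2 -0.30 ± 0.08, adjusted p = 0.101). Neither gene's groups overlapped, which was true of 4 of these 15 genes (26.7%, beside 15.1% of tested genes). None of 11 tested NADPH supply genes passed (1, or 9.09%, had an unadjusted p under 0.05), and DESeq2 called 1 higher. That gene was Idh2, the mitochondrial NADP-dependent isocitrate dehydrogenase, at 153 ± 13.2 CPM in LKO and 120 ± 9.49 CPM in female Fl/Fl (edgeR adjusted p = 0.114). Transketolase, Tkt, stood at log2 0.17 ± 0.10 (adjusted p = 0.436).

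None of 30 genes of conjugation, reduction and export passed. Of their log2 fold changes 26 were positive and 4 negative (median 0.18), beside 8122 and 8298 over all tested genes (median -0.0032). In some of them Fl/Fl 9 stood below the other female controls. Named after its values were seen, Gsta3 had 1240, 1534 and 662 CPM in Fl/Fl 5, 7 and 9, against 1167 to 1486.5 CPM in LKO. In others it did not, as in Cbr1 (69.0, 75.5 and 79.9 CPM in Fl/Fl 5, 7 and 9). An unadjusted p under 0.05 was reached by 7 (23.3%), and DESeq2 called 1 lower, Osgin1. The glucuronosyltransferase Ugt1a6a stood at log2 0.47 ± 0.15 (adjusted p = 0.161), and it shares exons with other Ugt1a genes, so its reads may be split among them. Osgin1, a gene named for its induction by oxidative stress, had 34.4, 21.8, 37.1 and 39.4 CPM in LKO 3, 4, 12 and 13, against 61.8, 40.4 and 75.0 CPM in Fl/Fl 5, 7 and 9. Its groups did not overlap (log2 -0.83 ± 0.26, adjusted p = 0.187), as in 3 of these 30 genes (10%, beside 15.1% of tested genes). The male control held 112 CPM of Osgin1.

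The 9 genes of heme and iron handling held no edgeR call, 3 (33.3%) with an unadjusted p under 0.05 and 3 called higher by DESeq2, Alas1, Hmox2 and, named after its values were seen, Ftl1. Alas1, which makes the rate-limiting enzyme of heme synthesis, came nearest to the threshold of all these lists. It had 537, 441, 579 and 599 CPM in LKO 3, 4, 12 and 13, against 368, 367 and 391.6 CPM in Fl/Fl 5, 7 and 9. No LKO value overlapped the female Fl/Fl values, which was true of 3 of these 9 genes (33.3%, beside 15.1% of tested genes). Alas1 stood at log2 0.52 ± 0.11 (edgeR adjusted p = 0.0530), and the male Fl/Fl liver held 764 CPM of it. It passed without LKO 4 (adjusted p = 0.0461) and without Fl/Fl 9 (adjusted p = 0.0342), and with no other single library left out. Without Fl/Fl 9, 727 of all tested genes were called, beside 232 in the main fit. Hmox2, the constitutive heme oxygenase, averaged 38.2 ± 3.42 CPM in LKO and 29.3 ± 1.65 CPM in female Fl/Fl (adjusted p = 0.0876).

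Of the 4 superoxide dismutase and catalase genes, none passed with edgeR, and 1 (25.0%), Sod1, had an unadjusted p under 0.05 and was called higher by DESeq2. That gene, the cytosolic superoxide dismutase, averaged 549.7 ± 35.3 CPM in LKO and 428 ± 36.1 CPM in female Fl/Fl (edgeR adjusted p = 0.101), and its mitochondrial relative Sod2 stood at log2 0.16 ± 0.09 (adjusted p = 0.454). Of 11 targets of ATF4, the amino acid stress factor that also drives Slc7a11, none passed, 3 (27.3%) had an unadjusted p under 0.05 and DESeq2 called 2 higher, Ddit4 and Cebpb. Ddit4, an inhibitor of mTORC1, had 97.5, 94.2, 118 and 65.1 CPM in LKO 3, 4, 12 and 13, against 46.8, 60.9 and 48.8 CPM in Fl/Fl 5, 7 and 9 (log2 0.84 ± 0.19, adjusted p = 0.0688). It passed without LKO 13 (adjusted p = 0.0276) and with no other single library left out. Cebpb, a bZIP factor, stood at log2 0.65 ± 0.23 (adjusted p = 0.228), and at 1.00 without Fl/Fl 9 (adjusted p = 0.00256). Cebpb passed with no other single library left out.

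**Figure D5:**
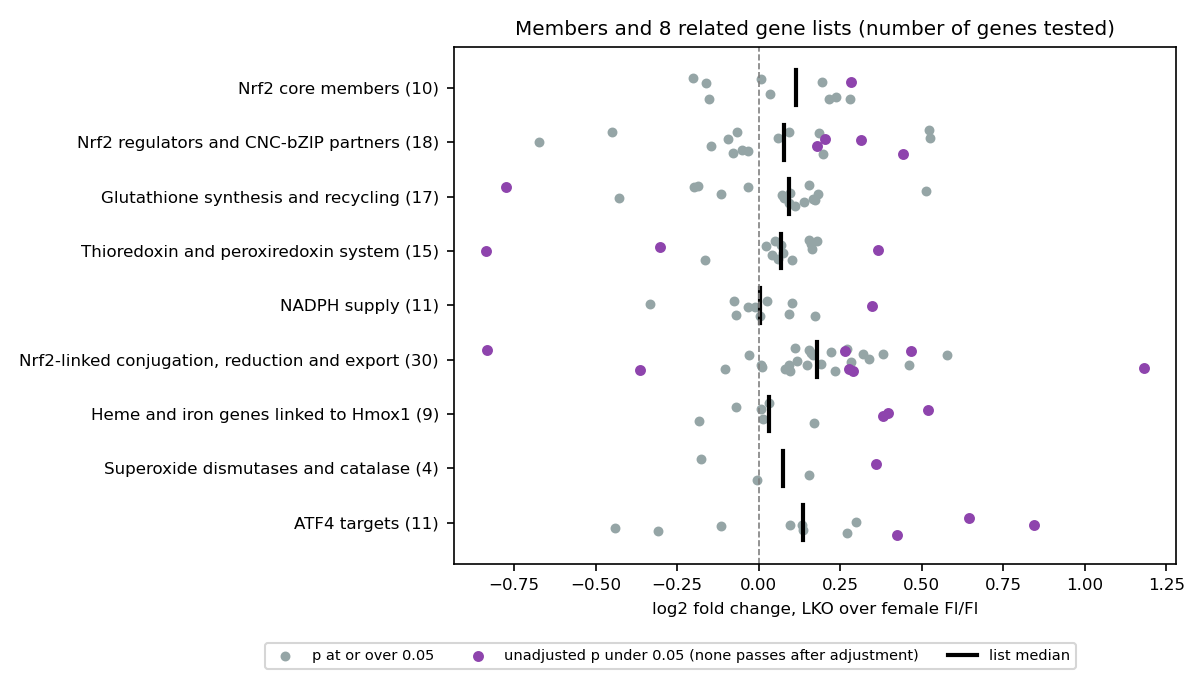
Log2 fold change, LKO over female Fl/Fl (x axis), of each tested gene in the member list and in the 8 related lists, with the number tested in brackets. Purple points have an unadjusted p under 0.05, and black bars are list medians, which lie between 0.0031 and 0.18.

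Immediate early genes, clock genes and cell type markers were measured in the same livers, and their part in the results above was not tested. Of 9 immediate early genes, 2 fell with edgeR (0.396% of tested genes called lower), Junb and Jun (log2 -1.88 ± 0.14, adjusted p = 0.00127, and -2.40 ± 0.35, adjusted p = 0.0369). All 9 log2 fold changes were negative, 6 with an unadjusted p under 0.05 (66.7%, beside 16.1% of tested genes). DESeq2 called 6 lower (315 of all 16420 tested genes), limma voom 2 (59 of all tested genes) and edgeR with the Arntl term 1. The male control held 49.9 CPM of Junb and 43.9 CPM of Jun, against 42.96 to 63.2 and 56.4 to 109 CPM in LKO and 163 to 200.3 and 251 to 583 CPM in female Fl/Fl. Of 18 clock genes none passed with edgeR, with Ciart, a repressor of the clock, at 15.2 ± 5.32 CPM in LKO and 4.90 ± 2.55 CPM in female Fl/Fl (adjusted p = 0.148). At an unadjusted p under 0.05 there were 2 clock genes (11.1%), and DESeq2 and edgeR with the Arntl term each called 1 higher. Of the hepatocyte, Kupffer cell, cholangiocyte and erythroid markers edgeR called 0, with an unadjusted p under 0.05 for 2, 1, 1 and 1 of them in that order, and DESeq2 called 1 hepatocyte and 1 Kupffer cell marker higher. The sum of 12 Kupffer cell and macrophage markers, cells in which Hmox1 is high, ranged over 511 to 641 CPM in LKO and 455 to 668 CPM in female Fl/Fl. The sum of 10 cholangiocyte markers ranged over 55.3 to 66.6 CPM in LKO and 66.4 to 79.5 CPM in female Fl/Fl, of 9 hepatocyte markers over 129744 to 145874 and 136060 to 147685 CPM, and of 7 erythroid genes over 52.6 to 73.3 and 53.7 to 90.4 CPM. Markers with no read in 1 library or more included the neutrophil genes Ngp, Ly6g and Camp and the erythroid gene Slc4a1.

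In the authors' deposited table, which sets LKO against all 4 Fl/Fl livers, the log2 fold change was 0.18 for Keap1 (adjusted p = 0.766), -0.06 for Nfe2l2 (adjusted p = 0.967) and 0.47 for Nqo1 (adjusted p = 0.702). The smallest adjusted p of the 10 members in the authors' deposited table was that of Nqo1.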

How the data were processed

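Liver RNA of 8 mice was measured as 1 library each. Per the labels' protocols, a silica-column kit gave the RNA and a NEBNext Ultra kit the libraries. The submitters' processing notes list build mm10 and, with no roles, STAR and fastp for reads, featureCounts and HTSeq, and edgeR, DESeq2 and DESeq. The authors deposited whole-number read counts per gene, signal values that equal the counts over 1 size factor per library, FPKM, and their own log2 fold change with its p-value and adjusted p.

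The deposited counts went into edgeR 4.0.16 (R 4.3.3): filterByExpr (16420 genes), TMM, and the quasi-likelihood F test with terms for sex and genotype, two-sided, Benjamini-Hochberg adjusted, threshold 0.05. With 1 male library, the sex term absorbs it and genotype is compared among the 7 female ones. Standard errors are the log2 fold change over the square root of F. Counting floors cover counting error only. The fit was also run on simulated data with genotype effects larger than the log2 fold change of any member. That run does not show whether differences as small as those of the members would be detected. Alternatives used DESeq2 1.42.0, limma 3.58.1, other scalings, filters and thresholds, and each library left out.

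The members and lists were chosen with earlier results of these data known. Named genes were the members and, in each related list, those past the threshold or else the pair with the smallest p. No 2 libraries were alike (lowest chi-square per degree of freedom 35.1). A few genes that these rules would name are not reported here.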

Additional observations from a re-analysis of the deposited data

How the results depend on the processing

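No member passed the threshold in any of the 21 alternative settings run. The 2 stricter and looser thresholds of 0.01 and 0.1 are among the 21 and were applied to the main fit alone. Keap1 had an adjusted p under 0.1 with DESeq2 (0.0926) and in edgeR with the Arntl term (0.0797). The 21 also list the 7 female libraries alone and the male library left out, which are the same fit. The number of all genes called, 232, was 1 with no sex term, 462 with no filter beyond 1 read, 885 with DESeq2, 140 with limma on log2(FPKM + 1), 18 at a threshold of 0.01, 531 at 0.1 and 26 without Fl/Fl 5 and 7, and ran from 4 to 727 with each library left out. In the 8 related lists, 0 calls became 2 with no filter (Alas1 and Ftl1), 11 with DESeq2 and 2 without Fl/Fl 5 and 7, and 0 to 7 with each library left out; the 7 came without Fl/Fl 9, with Maff, Mafk, Bach1, Cebpb, Trib3 and Alas1 higher and Ugt2b35 lower. The log2 fold change of Keap1 kept its sign throughout (0.18 to 0.37, adjusted p 0.0797 to 0.695), as did those of Nfe2l2 (-0.30 to -0.06), Gclm (-0.21 to -0.12), Txnrd1 (0.11 to 0.25) and Nqo1 (0.08 to 0.52). Without Fl/Fl 5 and 7, the libraries with the most Fos, a setting chosen after seeing the data that leaves Fl/Fl 9 as the 1 female control, assumed to vary like the other groups, the log2 fold changes turned to -0.045 for Hmox1, 0.0069 for Gclc, -0.031 for Srxn1, -0.67 for Slc7a11 and -0.16 for G6pdx. G6pdx also turned to -0.0064 with upper quartile scaling, -0.013 with limma voom, -0.0059 on log2(FPKM + 1) and -0.050 with an Arntl term. With each library left out it ran from -0.11 to 0.11, Gclc from -0.28 to -0.032, Srxn1 from 0.15 to 0.38, Hmox1 from -0.045 to 0.091 and Slc7a11 from -0.13 to 1.17. The cause was not tested. The log2 difference in the Gclc to Gclm ratio ran from -0.064 to 0.092 with each female library left out, and that in the Nfe2l2 to Keap1 ratio from -0.58 to -0.39, where such tests cannot pass 0.05; over all 8 libraries the Nfe2l2 to Keap1 ratio differed by -0.22 (exact permutation test, p = 0.514). No paired analysis was possible because the genotypes share no replicate numbers. Depth limits Slc7a11 most among the members, at 4 to 22 reads per library.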

Other observations

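The male Fl/Fl liver carries no weight in the fold changes, and several pathway genes stood apart in it. It held 3.44 CPM of Nqo1 and 42.7 CPM of Nfe2l2, against 8.27 to 14.2 and 54.5 to 74.1 CPM in the 7 female livers of both genotypes. Hmox1, at 12.03 CPM, was also under each female value (14.9 to 18.6 CPM), while Keap1 and Txnrd1 lay inside the LKO range. Osgin1, at 112 CPM, was above each female liver (21.8 to 75.0 CPM), as was Prdx5, at 207.5 CPM (101 to 149 CPM). Further apart, and named after its values were seen, was Gstp1 of the conjugation list. It held 2675 CPM in the male liver, against 180 to 231 CPM in LKO and 192 to 246 CPM in female Fl/Fl. With 1 male library these are values of that library, and no test of sex was possible.

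By the root mean square difference of centred log2 CPM over the 8 libraries, among 12336 other genes with a mean of at least 1 CPM, the profiles most like that of Nfe2l2 were those of Rps6ka3, a kinase gene (0.07), and Rrm1, a ribonucleotide reductase subunit (0.07). Rps6ka3 stood at 15.5, 15.4, 19.2 and 16.4 CPM in LKO 3, 4, 12 and 13, against 19.96, 18.2 and 21.7 CPM in Fl/Fl 5, 7 and 9 and 13.1 CPM in the male liver. The likeness is a description over the same 8 libraries.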
